A study of Mus musculus with 6 samples.

Results

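The genes of coenzyme Q biosynthesis were followed in RNA-seq of mouse dorsal skin. The members were taken by name, as the rows of the deposited expression table for Coq2, Coq3, Coq4, Coq5, Coq6, Coq7, Coq8a, Coq9, Coq10a and Coq10b. All 10 were found, among 21959 genes in the table, and all 10 passed the expression filter. The skin came from male C57BL/6 mice that were shaved on the back at 7 weeks of age, in telogen, the resting phase of the hair cycle. The vehicle group (3 mice) received 30% dipropylene glycol in 70% water on the shaved skin daily for 7 days, and the Reba group (3 mice) received 3% rebamipide, a drug in use for gastric ulcer, on the same schedule. Both groups were shaved, and the RNA was that of full-thickness skin with every cell layer in it. In such bulk tissue, fewer cells of a type and less RNA per cell cannot be told apart.

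Coenzyme Q, or ubiquinone, is the lipid that carries electrons through the inner mitochondrial membrane, from complexes I and II and several other dehydrogenases to complex III. It is built from an aromatic ring and a long isoprenoid tail. COQ2 joins the ring to the tail, and the ring is then modified by COQ3 and COQ5, which add methyl groups, by COQ6 and COQ7, which add hydroxyl groups, and by COQ4. COQ9 is a lipid-binding protein that works with COQ7, and COQ8A is an atypical kinase-like protein that these enzymes need in order to act as a complex. COQ10A and COQ10B bind the finished lipid and are needed for its use in respiration. Tissues rich in mitochondria, such as brown fat and heart and oxidative muscle, hold much of this lipid.

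The stretches before the start sites of 2 members are shown first, namely Coq8a with the largest fold change and Coq2 with the smallest error. The sequences are those of RefSeq on GRCm38.p6, read by gene symbol, and 9 of the 10 members had an entry. Both stretches run 5′ to 3′ on the gene's strand and hold the 250 bases before the start site. That of Coq8a is chr1:180196021-180196270 on the minus strand, and that of Coq2 is chr5:100674257-100674506 on the minus strand.
Coq8a: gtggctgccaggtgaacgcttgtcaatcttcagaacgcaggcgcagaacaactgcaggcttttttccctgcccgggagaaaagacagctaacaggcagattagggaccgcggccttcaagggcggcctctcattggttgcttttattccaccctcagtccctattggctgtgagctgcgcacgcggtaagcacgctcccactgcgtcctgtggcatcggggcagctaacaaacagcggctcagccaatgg
Coq2: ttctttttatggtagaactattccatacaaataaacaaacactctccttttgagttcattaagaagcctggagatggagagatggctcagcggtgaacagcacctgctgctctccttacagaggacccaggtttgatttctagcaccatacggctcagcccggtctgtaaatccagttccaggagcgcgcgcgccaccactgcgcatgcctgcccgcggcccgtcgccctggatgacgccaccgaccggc
With 50 bases after the start site included, 61.7% of the bases of the Coq8a stretch and 59.3% of those of the Coq2 stretch were G or C, where the median over all 32851 promoters was 52.7%. The table lists a second start site for Coq8a, whose stretch held 48.7% G or C.

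The same 300-base promoters were searched on both strands for 5 motifs of factors known from mitochondrial or metabolic genes. These were GCGCNTGCG for NRF1, CCGGAAGT for ETS factors such as GABPA, TCAAGGTCA for the ERR receptors, AAGATGGCG for YY1, and the E-box CACGTG. Counted over the start sites of each of 27025 genes, they were found in 7.12%, 4.31%, 0.47%, 1.64% and 8.09% of genes in that order. At least 1 of the 5 was found in 18.9% of genes and in 5 of the 9 members, and no member held the ETS or ERR motif. The windows of 30 bases are printed with the match in capitals, and the NRF1 matches are on the opposite strand.
Coq8a, NRF1, chr1:180196216-180196245: atcttcagaaCGCAGGCGCagaacaactgc
Coq3, NRF1, chr4:21879844-21879873: ggcggctctgCGCAAGCGCggcagagagcg
Coq9, YY1, chr8:94838409-94838438: gcccacttccAAGATGGCGgcgacagcagc
Coq10b, E-box, chr1:55052680-55052709: ggcggcactggaCACGTGcgtcagcctagc
Coq4, E-box, chr2:29787425-29787454: cggcaaacgaacCACGTGacctcactccac
The Coq8a match depended on the length of the motif. With 1 more base at the end, a form of 10 letters that 5.19% of genes hold, the NRF1 motif was found in Coq3 and not in Coq8a, while the 10-letter form of the YY1 motif was still found in Coq9. A match describes letters in the window and is not a binding site.

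The libraries held 38676018 to 39915276 counts in the vehicle group and 32709801 to 34706852 in the Reba group. Mitochondrially encoded genes made up 2.59% to 5.36% of vehicle counts and 13.28% to 21.96% of Reba counts, and TMM factors from edgeR were used to scale the counts, which are given as normalized CPM (counts scaled to a common library size). The tissue label was checked against keratinocyte genes. The third Reba library had 0 counts of Krt14 (which allows up to 0.114 CPM at 3 counts, for counting error only) and 0.153 CPM of Krt5, where the vehicle libraries had 1010 to 1574 CPM of Krt5, so the defining markers of epidermis were near absent there. The brown fat gene Ucp1 had 0 counts in each vehicle library (up to 0.0601 to 0.0641 CPM at 3 counts) and 2669 to 8591 CPM in the Reba libraries. Results are therefore given below with and without single libraries.

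The members rose as a group in rebamipide-treated skin. At an adjusted p-value under 0.05, edgeR's quasi-likelihood test called 9 of the 10 members higher and 0 lower, with 9 higher and 0 lower at an unadjusted p-value under 0.05, against 20.9% and 18.8% of all genes. Over all 14875 genes tested, 14.1% were called higher and 6.51% lower. DESeq2 called 9 members higher, with 2719 of all genes, and limma-voom 8, with 2138 of all genes, and both called 0 members lower. The median log2 fold change of the members was 2.13, where that of all genes was -0.17, and 10 of 10 members were above 0, against 43.1% of all genes. In each of the 10 members every Reba library was above every vehicle library on the normalized CPM scale, a separation found in this direction for 24.5% of all genes and in the opposite direction for 24%. By the study's thresholds (unadjusted p-value under 0.05 with a change above 2-fold in either direction), the same test called 9 members higher, against 14.3% of all genes, and 0 lower, against 14.5%. The member outside all calls was Coq4.

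**Figure D1:**
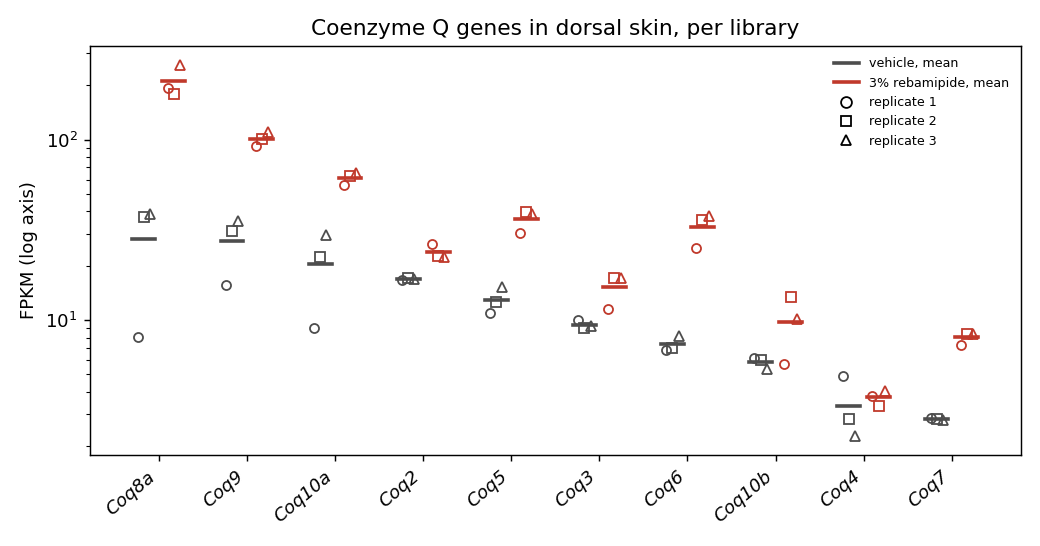
FPKM of each coenzyme Q gene (log axis, genes ordered by their vehicle mean) in the 3 vehicle and 3 Reba libraries, with bars at the group means and a symbol for each replicate. By group mean Coq8a, Coq9 and Coq10a are the most abundant in both groups. The first vehicle library is low for these 3, while Coq2 and Coq7 hardly vary among vehicle libraries.

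Compared per length, by the deposited FPKM, Coq8a was the most abundant member in both groups, with 27.99 ± 17.3 FPKM in vehicle and 210.6 ± 43.5 FPKM in Reba skin (SD, n = 3). Coq9 followed with 27.4 ± 10.5 and 100.9 ± 8.79 FPKM, and Coq10a with 20.3 ± 10.4 and 61.4 ± 4.56 FPKM. In vehicle skin the ranges of Coq8a, Coq9, Coq10a and Coq2 (16.9 FPKM) overlapped from each to the next, so their order there is not fixed. In Reba skin the first 3 were separate from each other, and of those that followed Coq6 overlapped both Coq5 and Coq2, which were separate from each other. The lowest members were Coq7 (2.84 ± 0.0339 FPKM) and Coq4 (3.32 ± 1.38 FPKM) in vehicle skin, and Coq4 alone, at 3.73 ± 0.367 FPKM, in Reba skin. Coq8a made up 8.87%, 25.2% and 23.6% of the members' summed FPKM in the vehicle libraries and 42.7%, 37.1% and 45.4% in the Reba libraries. Coq2 went the other way, from 10.3% to 18.3% of that sum in vehicle skin to 3.89% to 5.84% in Reba skin, although its own level rose. FPKM are scaled by each library's total counts, and on that scale the groups overlapped for Coq4 and Coq10b.

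Of the ring-modifying enzymes, Coq6 rose most. Coq6, whose product is a hydroxylase of the ring (ENSMUSG00000021235, chromosome 12, 84408431 to 84420570 in the deposited table), had 16.9, 17.9 and 21.3 CPM in the vehicle libraries and 85.3, 150.7 and 156.8 CPM in the Reba libraries. The lowest Reba library was 4.01 times the highest vehicle library. The log2 fold change was 2.81 (standard error, SE, 0.29, adjusted p = 0.00939, edgeR). Coq7, which encodes the hydroxylase acting late in the pathway, had 14.5, 14.7 and 14.95 CPM in vehicle skin and 50.6, 72.6 and 71.3 CPM in Reba skin. Its vehicle libraries differed by a coefficient of variation of 1.58%, and its log2 fold change was 2.14 (0.21 SE, adjusted p = 0.00939, edgeR). The groups of both hydroxylase genes were thus apart by more than 3-fold at their nearest libraries.

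Both methyltransferase genes rose, and the difference between them was not tested. Coq5 had 25.8, 31.0 and 38.3 CPM in the vehicle libraries and 99.7, 160.4 and 154.4 CPM in the Reba libraries, a log2 fold change of 2.12 (0.27 SE, adjusted p = 0.00993, edgeR). Coq3 had 23.4, 21.8 and 22.9 CPM in vehicle skin and 36.95, 68.98 and 68.0 CPM in Reba skin, a log2 fold change of 1.35 (0.28 SE, adjusted p = 0.0243, edgeR). The first Reba library was the low one for Coq3, at 1.58 times the highest vehicle library, and the other two lay together. In edgeR the Coq3 call was lost with library totals alone (adjusted p = 0.0511), with a replicate block (0.0605) and when the first vehicle library (0.0569), the second (0.105), the second Reba library (0.105) or the third (0.067) was removed.

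Coq8a and Coq9, the kinase-like regulator and the lipid-binding partner of COQ7, rose from a vehicle group that was itself uneven. Coq8a (ENSMUSG00000026489, chromosome 1, 179992803 to 180027167 in the deposited table) had 33.4, 159.7 and 169.3 CPM in the vehicle libraries and 1097, 1269 and 1824 CPM in the Reba libraries. Its log2 fold change of 3.53 was the largest of the members and had the widest standard error, 0.67 (adjusted p = 0.0199, edgeR), and the vehicle libraries alone spanned 5.07-fold. Coq9 had 37.2, 76.7 and 89.8 CPM in vehicle skin and 303.0, 413.1 and 443.8 CPM in Reba skin (log2 fold change 2.51, 0.39 SE, adjusted p = 0.0125, edgeR). For both genes the first vehicle library was the low one, and without it their log2 fold changes were 3.05 and 2.18 (adjusted p = 0.0317 for each, edgeR).

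Coq2 and Coq4 had the smallest fold changes of the members. Coq2, whose product joins ring and tail (ENSMUSG00000029319, chromosome 5, 100802589 to 100823006 in the deposited table), had 34.1, 36.5 and 36.7 CPM in vehicle skin and 74.5, 79.3 and 77.6 CPM in Reba skin. The rise was 2.15-fold (log2 fold change 1.11, 0.15 SE, adjusted p = 0.0101, edgeR), and the coefficient of variation was 4.09% in the vehicle group and 3.17% in the Reba group, and its standard error was the smallest of all members. Coq4 (ENSMUSG00000026798, chromosome 2, 29677505 to 29687947 in the deposited table) had 13, 7.76 and 6.37 CPM in vehicle skin and 13.9, 15.2 and 18.3 CPM in Reba skin. Its groups touched, the lowest Reba library being 1.07 times the highest vehicle library, and its log2 fold change of 0.80 did not pass (95% interval -0.01 to 1.62, adjusted p = 0.13, edgeR). Without the first vehicle library, where it was highest, Coq4 passed with a log2 fold change of 1.14 (adjusted p = 0.0467, edgeR). The gene overlaps Trub2 on the opposite strand by 1010 bases in the table, and how the counting treated strand is not given in the sources used here, so reads in that overlap cannot be told apart. Coq6, Coq8a and Coq9 overlap an opposite-strand gene by 177, 366 and 38 bases in the same way.

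The lipid-binding pair differed in level and in evenness. Coq10a had 18.3, 46.7 and 62.8 CPM in the vehicle libraries and 156.1, 216.8 and 221.9 CPM in the Reba libraries, a log2 fold change of 2.22 (0.47 SE, adjusted p = 0.0258, edgeR). The Coq10a call was lost in 6 alternative fits. These were edgeR and limma-voom without the second vehicle, the second Reba or the third Reba library. Coq10b was even in vehicle skin, at 23.1, 23.3 and 21.3 CPM, and uneven in Reba skin, at 29.6, 86.3 and 64.7 CPM. Its log2 fold change of 1.41 (0.39 SE) was at the edge of the call (adjusted p = 0.0499, edgeR). That call was lost when the first vehicle library (adjusted p = 0.108), the second (0.149), the third (0.0993), the second Reba library (0.161) or the third (0.108) was left out of the edgeR fit, and it held without the first Reba library (adjusted p = 0.00643). With all libraries kept it was also lost with RLE normalization (0.0505), no filter (0.0517), library totals alone (0.112), limma-voom (0.0693), limma on log2(FPKM + 1) (0.143) and a replicate block (0.101), and DESeq2 kept it (adjusted p = 0.00912). The ratio of Coq10a to Coq10b by FPKM was 1.48, 3.74 and 5.49 in vehicle skin and 9.86, 4.69 and 6.4 in Reba skin. These ratios overlapped between groups (exact permutation test, two-sided p = 0.2, where 3 libraries against 3 allow no p below 0.1).

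Tested singly on normalized CPM by an exact permutation test (two-sided), each member had p = 0.1, which is the lowest value 3 libraries against 3 can reach. The first Reba library was the lowest of its group in 10 of 10 members, and the first vehicle library was the lowest of its group in 7 of 10. Scaling by library totals alone moved the median log2 fold change of all genes from -0.175 to -0.778 and lowered every member with it. On that scale 1258 genes of all were higher and 3752 lower, against 2093 and 968 with TMM, and 7 members were called higher, Coq3, Coq10b (adjusted p = 0.112) and Coq4 (0.696) falling short in edgeR. By the study's thresholds 6 members were higher on that scale, and 6 in limma on log2(FPKM + 1). The share of all genes passing them was not counted for these 2 fits. At an unadjusted p-value under 0.05 alone, in either direction, stood 7671 and 8303 of the 14875 genes.

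**Figure D2:**
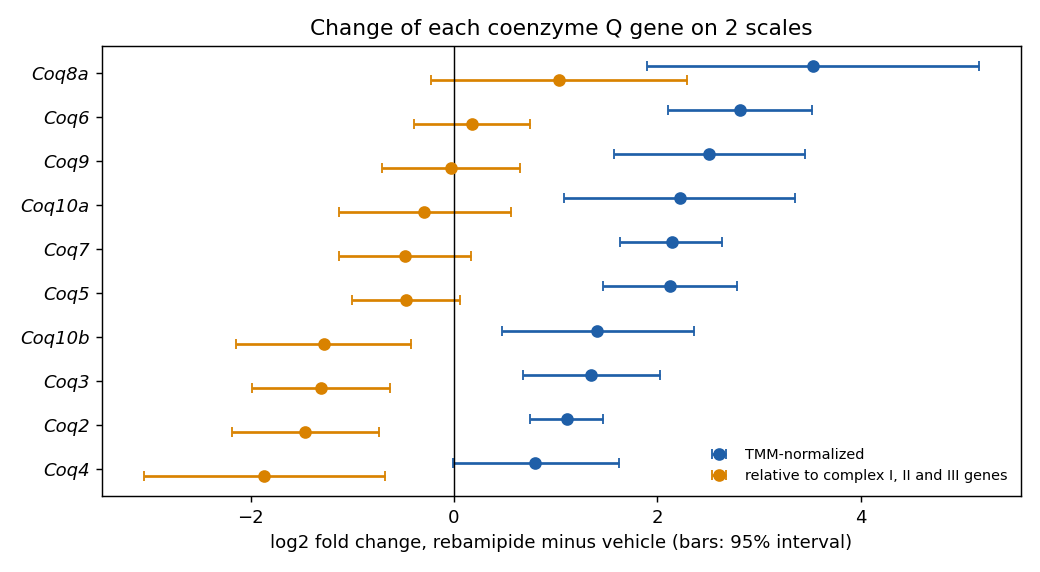
Log2 fold change of each coenzyme Q gene, rebamipide minus vehicle, with 95% intervals from edgeR, after TMM normalization (blue) and relative to the summed counts of complex I, II and III genes (orange). All 10 blue points lie above 0, and the orange points of Coq2, Coq3, Coq4 and Coq10b lie below 0 with intervals that exclude it.

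The complexes that exchange electrons with coenzyme Q rose as well, which raises the question whether the members kept pace with them. The nuclear genes of complexes I, II and III made up 0.392%, 0.483% and 0.561% of all vehicle counts and 1.56%, 1.9% and 2.11% of all Reba counts. The fit was repeated with the summed counts of these 49 genes as each library's size, so that a log2 fold change of 0 means a rise in proportion to them. By this measure 88.1% of all genes were called lower and 1.1% higher. Of the members, 4 were called lower, namely Coq2, Coq3, Coq4 and Coq10b, and 0 were called higher by edgeR, with the same counts at an unadjusted p-value under 0.05.

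Coq6 and Coq9 were the members nearest to proportion. Coq9 had a relative log2 fold change of -0.03 (95% interval -0.71 to 0.65) and Coq6 one of 0.18 (-0.39 to 0.75). Per 1000 counts of the respiratory genes, Coq6 had 5.49, 4.56 and 4.59 counts in the vehicle libraries and 5.07, 5.92 and 5.6 in the Reba libraries, and the groups overlapped. Coq10a (-0.29, interval -1.13 to 0.56), Coq5 (-0.47, -1 to 0.06) and Coq7 (-0.48, -1.13 to 0.17) did not pass either, and these intervals still allow a relative fall of more than 2-fold for Coq10a and Coq7. Coq5 and Coq7 were nonetheless lower in every Reba library, with 7.92 to 8.42 against 5.51 to 6.3 counts per 1000 for Coq5 and 3.22 to 4.72 against 2.54 to 3 for Coq7. On this scale 6 members lay below every vehicle library, as did 90.9% of all genes, and 1 lay above, as did 1.66%, so such a separation downward is the rule among all genes. Coq8a lay on the other side at 1.03 (interval -0.23 to 2.29, adjusted p = 0.101, edgeR), with 10.9, 40.8 and 36.5 counts per 1000 in vehicle skin and 65.2, 49.9 and 65.1 in Reba skin.

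Coq2 fell from 11.1, 9.33 and 7.92 counts per 1000 respiratory counts in the vehicle libraries to 4.43, 3.11 and 2.77 in the Reba libraries, a relative log2 fold change of -1.46 (0.3 SE, adjusted p = 0.00387, edgeR). The groups were well apart. Coq3 had a relative log2 fold change of -1.31 (0.28 SE, adjusted p = 0.00483) and Coq10b one of -1.28 (0.36 SE, adjusted p = 0.0135, edgeR). Coq4 went from 4.24, 1.98 and 1.37 counts per 1000 to 0.828, 0.597 and 0.653 (relative log2 fold change -1.87, 0.49 SE, adjusted p = 0.0106, edgeR). These 4 calls held in each of the 6 fits that left out 1 library. In these fits 4 to 5 members were called lower, as were 11705 to 13760 of the 14964 to 15345 genes tested. The fifth was Coq10a, called lower by edgeR when the first vehicle library was left out (adjusted p = 0.0453). Genes of the reference itself also varied on this scale. Of the 36 complex I genes 9 were called lower, and the median relative log2 fold change of the 45 complex I and III genes was -0.35, where that of the members was -0.48.

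**Figure D3:**
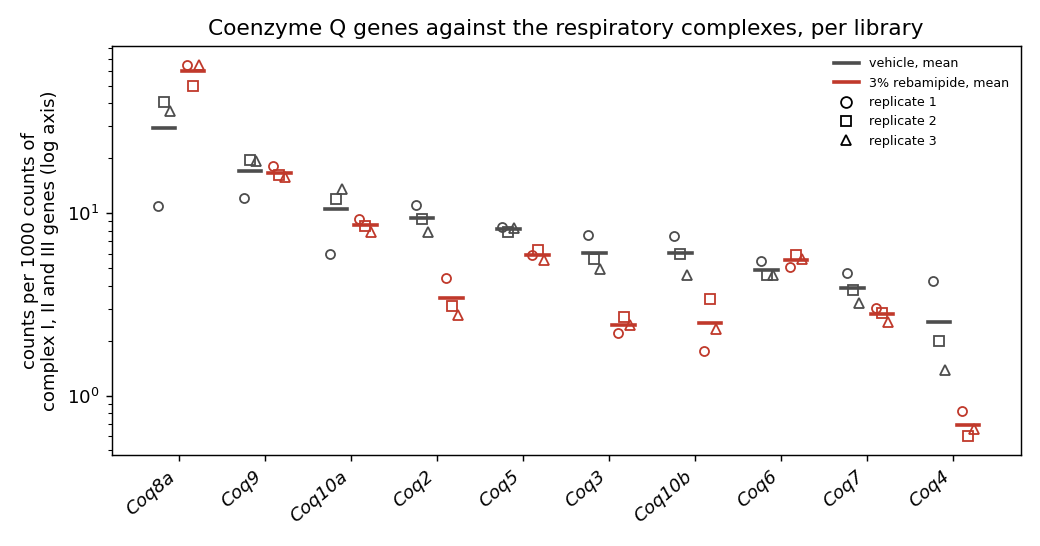
Counts of each coenzyme Q gene per 1000 counts of complex I, II and III genes (log axis) in each library, with bars at the group means. Coq2, Coq3, Coq4, Coq5, Coq7 and Coq10b are lower in every Reba library than in any vehicle library (as are 90.9% of all genes), Coq6, Coq9 and Coq10a overlap between the groups, and Coq8a is higher in every Reba library.

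Other genes of the pathway were taken from a list of 12, of which 11 passed the expression filter. Of these, 5 were called higher and 0 lower by edgeR (9 higher and 1 lower at an unadjusted p-value under 0.05), and their median log2 fold change was 1.15. The isoprenoid tail is made by a synthase of the subunits PDSS1 and PDSS2, and only one of their genes passed the test. Pdss2 had 6.69, 7.76 and 10.01 CPM in vehicle skin and 20.2, 21.6 and 21.6 CPM in Reba skin (log2 fold change 1.37, 0.24 SE, adjusted p = 0.0164, edgeR). Pdss1 had 4.95, 9.34 and 17.02 CPM against 8.3, 14.7 and 12.2 CPM, with overlapping groups (log2 fold change 0.17, adjusted p = 0.818, edgeR). The difference between the subunits was not tested.

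Coq8b, the paralog of Coq8a, had 8.21, 10.2 and 11.7 CPM in vehicle skin and 14.6, 18.6 and 18.2 CPM in Reba skin (log2 fold change 0.77, 0.25 SE, adjusted p = 0.0724, edgeR). By FPKM, Coq8a stood at 4.29, 16.5 and 15.3 times Coq8b in the vehicle libraries and at 79.6, 72.2 and 106 times in the Reba libraries. These ratios did not overlap (exact permutation test, two-sided p = 0.1, the smallest possible). Among the further kinase-like relatives, Adck1 rose (log2 fold change 2.04, adjusted p = 0.0101, edgeR), while Adck2 (0.91, adjusted p = 0.0955) and Adck5 (-0.86, adjusted p = 0.0981) did not pass.

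Stard7, which encodes a lipid transfer protein that helps move coenzyme Q out of mitochondria, rose from 96.5, 117.1 and 128.5 CPM to 196.2, 274.9 and 286 CPM (log2 fold change 1.15, adjusted p = 0.0243, edgeR). Pptc7, a mitochondrial phosphatase gene, had the same log2 fold change of 1.15 and did not pass (adjusted p = 0.0788), its groups overlapping. Fdxr, a reductase gene that supplies electrons to ferredoxins, rose (1.5, adjusted p = 0.0473, edgeR). Hpdl, whose product takes part in making the ring precursor, had 1.32 to 3.51 CPM in vehicle skin and 4.22 to 8.11 CPM in Reba skin (1.38, adjusted p = 0.0824). Fdx2, the ferredoxin gene of the list, did not pass the filter, with 1 to 11 counts per library. The deposited annotation assigns 17 genes to ubiquinone biosynthesis, among them the 10 members. Of the other 7, 3 were called higher and 0 lower by edgeR, and Elovl5 (-0.12) and Plpp5 (0.21) showed little change.

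The mevalonate steps, which supply the isoprenoid units for the tail and also for cholesterol, did not move with the members. Of 9 genes, 1 was called higher and 3 lower (1 and 5 at an unadjusted p-value under 0.05, edgeR), and the median log2 fold change was -0.73. Idi1 (-2.06, adjusted p = 0.0177) and Mvd (-1.91, adjusted p = 0.0412) fell, and Acat2, a cytosolic thiolase gene, rose (1.60, adjusted p = 0.0137, edgeR). Fdps (-1.82, adjusted p = 0.0566) and Mvk (-0.73, adjusted p = 0.0953) did not pass. Hmgcs1 (0.06), Pmvk (0.28) and Ggps1 (0.01) overlapped between the groups. The lower calls were unstable in edgeR, with 0 under a replicate block and without the second vehicle or the second Reba library, 1 without the first or the third vehicle library, and 5 without the first Reba library. The 5 basal keratinocyte markers, of which 0 were called lower by edgeR and 1 was lower at an unadjusted p-value under 0.05, had a summed level of 2119 to 3619 CPM in vehicle skin and 131.1 to 1044 CPM in Reba skin, Itga6 overlapping between the groups, and their part in the falls was not tested.

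The enzymes that pass electrons to coenzyme Q rose with a median log2 fold change of 2.72. Of 12 genes, 11 were called higher and 0 lower by edgeR (also 11 and 0 at an unadjusted p-value under 0.05). Gpd2, the mitochondrial glycerol-3-phosphate dehydrogenase, went from 27.7, 39.7 and 77.0 CPM to 630.3, 1410 and 1248 CPM (log2 fold change 4.51, 0.56 SE, adjusted p = 0.00993, edgeR). Etfdh, which delivers electrons from fatty acid oxidation, went from 62.3, 75.1 and 83.4 CPM to 472, 1015 and 1066 CPM (3.53, 0.4 SE, adjusted p = 0.00939). Aifm2, which reduces coenzyme Q outside mitochondria, had a log2 fold change of 3.86 (0.5 SE, adjusted p = 0.00993, edgeR). These 3 were also called higher relative to the complexes, by 1.94, 0.88 and 1.30 (adjusted p = 0.00273, 0.0189 and 0.00697, edgeR). Another 3 of the list were called lower on that scale, Dhodh (-1.18, adjusted p = 0.0159), Prodh (-1.20, adjusted p = 0.0127) and Nqo1 (-3.01, adjusted p = 0.00421). Of all genes, 1.1% were called higher and 88.1% lower on it, so a lower call there is the rule.

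The 4 genes of complex II rose by 3.15 (Sdha), 3.04 (Sdhb), 2.39 (Sdhc) and 3.12 (Sdhd). Chdh (2.13), Sqor (1.88), Dhodh (1.48) and Prodh (1.34), which draw electrons from choline, sulfide, pyrimidine synthesis and proline, were called higher with adjusted p-values of 0.0199 to 0.0308 (edgeR). Nqo1, a cytosolic quinone reductase, was the exception, with 7.71, 9.32 and 12.3 CPM in vehicle skin and 10.01, 5.42 and 3.63 CPM in Reba skin (log2 fold change -0.62, adjusted p = 0.322, edgeR). The donor enzymes at the mitochondrial membrane and the members of the synthesis pathway all had log2 fold changes above 0.

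Of complex I, 35 of 36 nuclear genes were called higher, with a median of 2.22, and of complex III 9 of 9, with a median of 2.71 (0 lower in each by edgeR, 35 and 9 higher at an unadjusted p-value under 0.05). Examples are Cyc1 (3.08, adjusted p = 0.00939) and Uqcrc1 (2.91, adjusted p = 0.00939) of complex III and Ndufv1 (3.07, adjusted p = 0.00939, edgeR) of complex I. Ndufb2, chosen after its values were seen, was the complex I gene that did not pass (0.76, adjusted p = 0.131). The median of the members, 2.13, lay near that of complex I, and the difference was not tested.

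**Figure D4:**
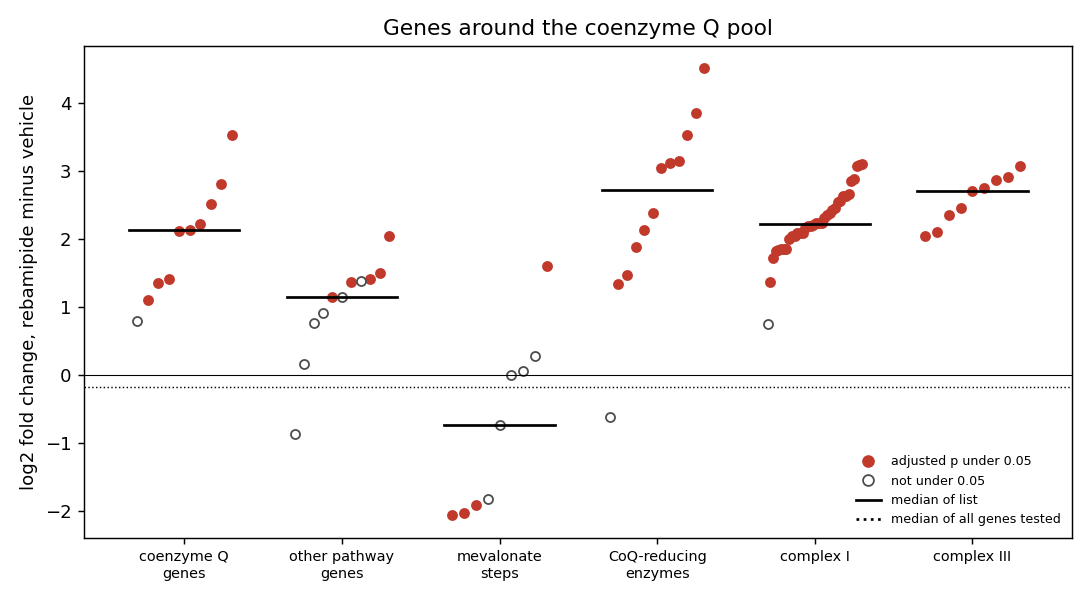
Log2 fold change, rebamipide minus vehicle, of each tested gene in 6 lists around the coenzyme Q pool, with filled points for genes at an adjusted p-value under 0.05, solid lines at list medians and a dotted line at the median of all genes tested (-0.17). The mevalonate steps, with a median of -0.73, are the list that lies mostly below 0.

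The genes with the most similar pattern were sought by Pearson's r, over the 6 libraries, between log2 normalized CPM and the mean of the members' standardized values. The 5 nearest of 13368 genes were Crls1, which encodes cardiolipin synthase (0.9999), Etfdh (0.9999), 4931406C07Rik (0.9997), Pmpcb, a subunit of the mitochondrial processing peptidase (0.9997), and Dtd1 (0.9997). With 6 libraries in 2 groups such values are common, and 1835 genes were above 0.95. Among the members themselves r with their own mean was highest for Coq6 (0.999), Coq5 (0.996) and Coq7 (0.996) and lowest for Coq4 (0.77) and Coq10b (0.908). Each member was part of that mean, which raises its r.

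Of the cell type marker lists, the brown adipocyte, adipocyte and endothelial sums rose with the members. The summed level of 8 brown adipocyte markers was 183.1 to 331.6 CPM in vehicle skin and 4781 to 12580 CPM in Reba skin, with 5 of 8 called higher. Elovl3 alone gave 128.6 to 238.4 CPM of the vehicle sum, and Ucp1 gave 2669 to 8591 CPM of the Reba sum. Ucp1, Otop1 and Kcnk3 were at or under 3.61 CPM in every vehicle library, whereas Zic1 (log2 fold change 0.09, adjusted p = 0.89), Lhx8 (1.06, adjusted p = 0.498) and Elovl3 (-1.45, adjusted p = 0.0575, edgeR) did not pass. The 8 adipocyte markers summed to 1914 to 5198 CPM in vehicle skin and 10750 to 20670 CPM in Reba skin, with 4 called higher. Fabp4 alone gave 5055 to 10960 CPM of the Reba sum, while Lep (log2 fold change -0.53), Retn (-0.23) and Cfd (0.34) overlapped between the groups. The endothelial list of 4 genes summed to 193.2 to 448.8 and 934.3 to 1366 CPM, with 2 called higher. In these 3 lists the summed level of every Reba library was above that of every vehicle library, as for the members, and the part of such cells in the members' rise was not tested.

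Muscle markers did not follow the members across the Reba libraries. The summed fast muscle markers (8 genes, 0 called in edgeR, 0 at an unadjusted p-value under 0.05) were at 5118, 21740 and 25380 CPM in the vehicle libraries and 32620, 6951 and 260.7 CPM in the Reba libraries, and the slow muscle markers (6 genes, 4 called higher) at 7.75, 13.5 and 2.07 and at 290.1, 129.3 and 7.02 CPM. Coq8a, Coq9 and Coq10a were lowest of the vehicle group in the first vehicle library, where the fast muscle, adipocyte, endothelial, suprabasal and basal keratinocyte, fibroblast and leukocyte sums were also lowest of that group. Each was highest in the third Reba library, where the adipocyte and endothelial sums were also highest of the Reba group. Both muscle sums and the keratinocyte, fibroblast and leukocyte sums were lowest of the Reba group there. The brown adipocyte sum was highest in the second Reba library. The part of muscle in the members' values was not tested. Fibroblast markers (6 genes) ran from 1850 to 15110 CPM in Reba skin and leukocyte markers (5 genes) from 176.9 to 657.6 CPM, each overlapping the vehicle group. Suprabasal keratinocyte markers (5 genes) ranged from 574.9 to 4256 CPM in vehicle skin, and the Reba libraries had 1089, 702.7 and 2.37 CPM, so that the third Reba library alone lay outside the vehicle range.

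**Figure D5:**
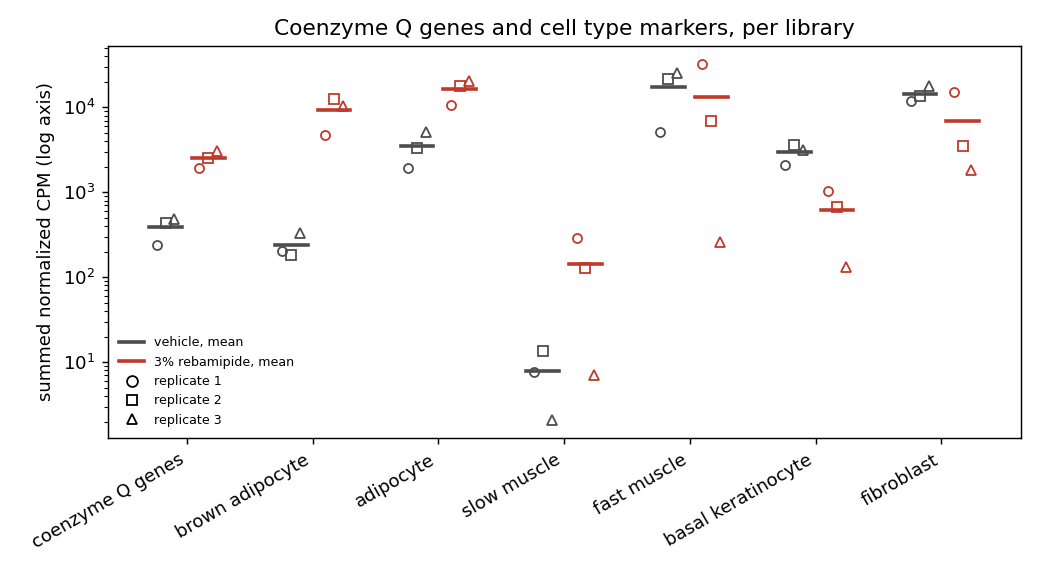
Summed normalized CPM (log axis) of the coenzyme Q genes and of 6 cell type marker lists in each library, with bars at the group means. The coenzyme Q genes (239.7 to 483.9 CPM in vehicle skin, 1947 to 3101 CPM in Reba skin) separate by group as brown adipocyte and adipocyte markers do, and fast muscle markers spread from 260.7 to 32620 CPM among Reba libraries.

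The calls of edgeR, for the members as for all genes, depended on which library was left out. Without the first vehicle, the third vehicle or the first Reba library 8, 8 and 9 members were called higher. All genes called higher in those fits numbered 1507, 1727 and 2810. Without the third Reba library 6 members were called higher, where 1012 of all 15327 genes tested were. Without the second vehicle library edgeR called 0 members and 0 of all 14964 genes, and without the second Reba library 0 members and 1 of all 15335 genes, so these counts of 0 are not particular to the members. At an unadjusted p-value under 0.05 stood 9 members and 4116 of all genes in the first of these fits, and 9 members and 4062 of all genes in the second. Without the third Reba, the second vehicle or the second Reba library DESeq2 called 9 members higher each time. It called 2046, 2097 and 2684 of all genes higher in those fits. The counts of limma-voom were 5, 2 and 2 members, with 910, 210 and 256 of all genes. The log2 fold change of every member was above 0 in all of these fits.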

How the data were processed

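Poly-A RNA-seq of 6 skin libraries was deposited as a single table. The counts deposited by the authors are unscaled whole reads per gene. The FPKM deposited by the authors match counts over gene length and library total. Per the submitters' processing notes fastp 0.22.0, HISAT2 2.1.0, HTSeq 0.9.1 and GRCm39 were used. Positions are those of the table, and promoter sequences come from RefSeq on GRCm38.p6. Members, motifs and gene lists were chosen with earlier results of these data known. Groups follow the labels, and the study's methods give 3 mice per group.

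Differences were tested with edgeR 4.0.16 in R 4.3.3 (filterByExpr, TMM, quasi-likelihood test, Benjamini-Hochberg adjustment over 14875 genes). Standard errors are the log2 fold change divided by the square root of the F statistic. A second fit used the summed counts of complex I, II and III genes as library size. No replicates were duplicated libraries (chi-square over degrees of freedom 83.56 to 763.5). The tests were tried on simulated counts with as many raised as lowered genes and a constant dispersion. That setting lacks the shift in mitochondrial counts and the very uneven replicates of these libraries, so it does not speak for the tests under them. Alternatives were DESeq2 1.42.0, limma-voom (limma 3.58.1), limma on log2(FPKM + 1), other normalizations and filters, a replicate block and each library left out. Named are all members, the genes of the pathway, mevalonate and electron donor lists (some are counted but not reported singly here), up to 3 genes by p-value and 2 by FPKM of each other list, and the 5 genes most similar to the members. Further genes named beside counts were chosen after their values were seen.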

Additional observations from a re-analysis of the deposited data

How the results depend on the processing

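Across 9 alternatives that kept all libraries, no member changed direction and 82 of 90 calls were the same, the other 8 being lost, all of Coq10b or Coq3. Of the 60 edgeR fold changes from fits without 1 library, 0 changed direction and 24 calls were lost. When single libraries were left out, the members called higher ranged from 0 to 9 in edgeR, from 9 to 10 in DESeq2 and from 2 to 9 in limma-voom, and by the study's thresholds from 8 to 10 (6 with library totals alone and 6 with limma on log2(FPKM + 1), all libraries kept). The lowest counts by adjusted p-value in edgeR and limma-voom came from fits that called 0 or 1 and 210 or 256 of all genes higher. The share of all genes passing the study's thresholds was counted for the main edgeR fit alone (14.3% higher, 14.5% lower). Every member had at least 298 counts in each library, and fits without 1 library leave a group of 2.

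Other pathway genes called higher numbered 3 with library totals alone and 8 with DESeq2, and those called lower 1 with library totals alone, 1 with DESeq2 and 1 with limma on log2(FPKM + 1). Mevalonate genes called lower numbered 5 under each of these 3 alternatives. The cause was not tested. Without single libraries, other pathway genes called higher ranged from 0 to 7 in edgeR and limma-voom and from 5 to 9 in DESeq2, and lower from 0 to 1 over the 3 tools. Mevalonate genes ranged from 0 to 2 higher and from 0 to 5 lower. Electron donor genes called higher ranged from 0 to 11 in edgeR and from 7 to 11 in limma-voom and were 11 throughout in DESeq2, with 0 to 1 lower, and complex I and III genes higher from 0 to 45 in edgeR, from 44 to 45 in DESeq2 and from 24 to 45 in limma-voom (25 without the second Reba library). The zeros of edgeR come from the same fits as above. Relative to the complexes, 4 to 5 members were called lower, where 11705 to 13760 of all genes were. The relative log2 fold change of Coq9 ranged from -0.223 to 0.0847 without single libraries, turning positive without the second (0.0847) or the third (0.0741) vehicle library and without the third Reba library (0.00792).

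Replicate numbers are shared by the groups, but libraries of the same number did not deviate together (r = -0.073, -0.0282 and -0.0392), and no library correlated best with its own number. With the replicate as a block in edgeR, 7 members and 1432 of all genes were called higher (2093 without the block), Coq10b (adjusted p = 0.101) and Coq3 (0.0605) being lost, other pathway genes called higher numbered 3, mevalonate genes called lower numbered 0, and the relative log2 fold change of Coq9 was 0.00137.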
